A study of Mus musculus with 6 samples.

Results

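The ATP-binding cassette (ABC) transporter family was followed in whole liver of 3 FRG-7dNTBC and 3 FRG+NTBC mice, with 1 Affymetrix Mouse 430 2.0 array per mouse. Members were the genes whose single symbol in the array annotation begins with Abc, a subfamily letter from a to g and a number, and each gene was represented by its brightest probe set, judged by mean log2 intensity across all 6 livers. This gave 45 of the 18193 genes with a probe set of their own, carried on 92 of 45037 probe sets. All mice were male FRG mice on the C57Bl/6J background, 12 weeks old and fed a chow low in tyrosine and phenylalanine. FRG-7dNTBC mice had gone 7 days without nitisinone (NTBC), whereas FRG+NTBC mice drank it continuously at 16 mg/L. Both groups carry knockouts of Fah, which completes the breakdown of tyrosine, and of Rag2 and Il2rg, so neither is a liver with intact Fah, and both lack mature lymphocytes. NTBC inhibits Hpd, which acts earlier in the same pathway, and without it the toxic intermediates that Fah would clear can form.

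ABC proteins bind and hydrolyse ATP in a conserved cassette, and most of them use it to carry a substrate across a membrane. In a hepatocyte the canalicular members pump bile salts, phospholipid, sterols and conjugates into bile, the basolateral members return conjugates and bile salts to the blood or load cholesterol onto lipoproteins, and half-transporters of the peroxisome and the mitochondrion import fatty acyl groups or handle porphyrin, heme and iron. The members of subfamilies E and F have no membrane part and act on the ribosome.

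Of 8 hepatocyte markers, Alb, Ttr, Apoa1 and Fgb did not pass limma, with mean intensities for Alb of 27306 in FRG-7dNTBC livers and 25776 in FRG+NTBC livers. The other 4 fell in FRG-7dNTBC livers, Tat by 1.92, Cps1 by 0.73, Ass1 by 2.38 and Pck1 by 2.48 on the log2 scale. The probe set of Ass1 read only 20.1, 27.3 and 16.1 in FRG-7dNTBC livers, against 73.5, 175 and 97.0 in FRG+NTBC livers. Its FRG-7dNTBC values lay below the median intensity of their arrays, and how well it reads Ass1 RNA was not tested. The summed intensity of the 8 markers was 89935 to 97166 in FRG-7dNTBC livers and 101653 to 103886 in FRG+NTBC livers. Median intensity was 33.1 to 34.3 in FRG-7dNTBC livers and 35.3 to 36.5 in FRG+NTBC livers, and log2 values of 2 arrays correlated across probe sets at 0.98 to 0.99 within FRG-7dNTBC, 0.988 to 0.993 within FRG+NTBC and 0.93 to 0.955 between the groups. These are arrays of bulk tissue, so a change in the number of cells of a type and a change in RNA per cell cannot be told apart. Of the markers of other cells, 2 of 6 endothelial and 2 of 6 macrophage genes were higher in FRG-7dNTBC livers, 1 of 6 stellate genes was higher, 1 of 3 erythroid genes was lower, and 0 of 4 cholangiocyte, 0 of 3 neutrophil and 0 of 3 lymphocyte genes passed limma at an adjusted p under 0.05. The cholangiocyte genes differed by 0.65 at Sox9, with no overlap (limma adjusted p = 0.0685), -0.27 at Krt19, -0.26 at Epcam and -0.45 at the dim Krt7. Of the 3 lymphocyte genes, 2 were dim. For FRG-7dNTBC livers the paper reports necrosis of hepatocytes, oval-like cells and infiltration of small lymphoid cells. By RT-qPCR it reports higher Epcam and no significant difference in Krt19. The array value of Epcam thus differs from that RT-qPCR, and an unchanged number of oval-like or lymphoid cells cannot be read from these arrays.

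ABC genes differed between the groups in both directions, with the drug and conjugate exporters Abcb1b and Abcc4 at one end and Abcc6 at the other. At an adjusted p under 0.05 from limma, 13 of 45 members (28.9%) were higher and 10 (22.2%) were lower in FRG-7dNTBC livers, against 17.4% and 12.7% of all genes (30.2% in either direction). Changes of at least 2-fold were found at 8 higher members (17.8%) and 7 lower members (15.6%), against 8.94% and 4.95% of all genes. The values of the groups did not overlap at 30 members (66.7%), against 46.2% of all genes. The median log2 fold change of the 45 members was 0.07 and that of all genes -0.05. Which direction was more common depended on the scaling of the arrays. When they were scaled to one 75th percentile, which shifted the log2 differences of all probe sets down by 0.13 at the median, 10 members were higher and 13 lower, and with quantile normalization of the deposited values 11 were higher and 11 lower. With no moderation of the variances, which limma otherwise borrows across probe sets, 8 were higher and 5 lower. The 7 members whose means lay below the median intensity of all probe sets (34.8) in both groups were Abca4, Abca12, Abca13, Abca14, Abca16, Abcc8 and Abcg3, and none of them was called at its brightest probe set, with log2 fold changes from -0.44 to 0.34. The other probe set of Abcg3, also dim, was higher (0.41, limma adjusted p = 0.0303). Abca16 passed as lower with the arrays scaled to one 75th percentile (adjusted p = 0.022), with moderation along an intensity trend (0.0236) and with array weights (0.0322). It also passed without FRG+NTBC replicate 3 (0.0274) and in the fit of averaged probe sets (0.0377). Abca13 passed as lower with that scaling (0.0448) and with array weights (0.0302).

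**Figure D1:**
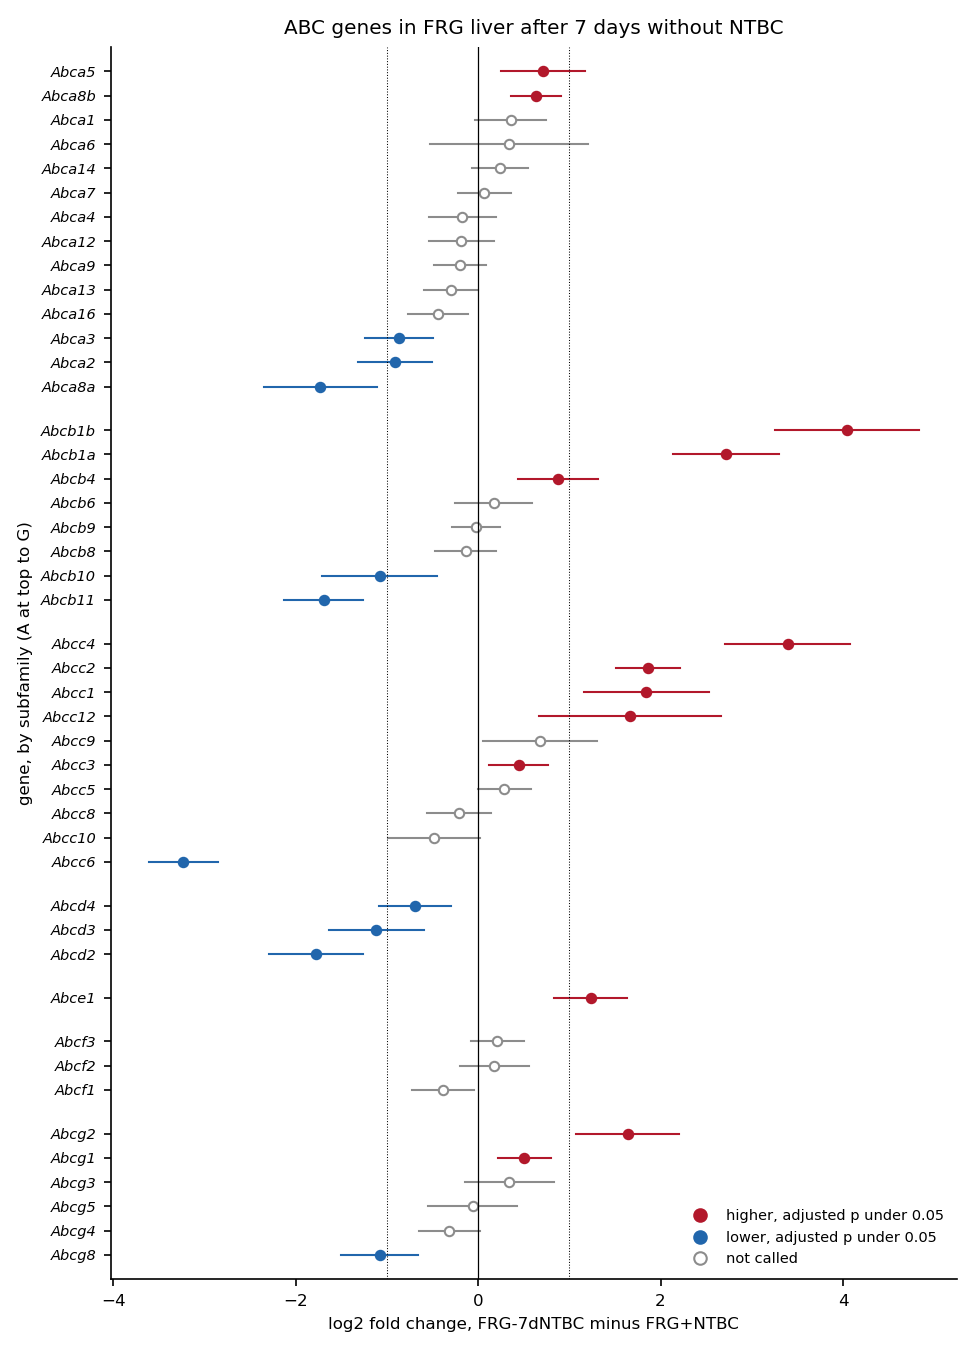
Horizontal axis, log2 fold change of FRG-7dNTBC over FRG+NTBC livers for each of the 45 ABC genes, ordered by subfamily from A at the top to G, with the 95% interval from limma as a line and dotted lines at a 2-fold change. Red points are the 13 members higher and blue points the 10 members lower at an adjusted p under 0.05, and open points are the 22 that were not called: the largest rises are in subfamilies B and C, and all 3 measured genes of subfamily D lie on the lower side.

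Of 8 canalicular members, 5 were higher (62.5%) and 2 lower (25%) in FRG-7dNTBC livers, against 17.4% and 12.7% of all genes. Their median log2 fold change was 1.26. None of the 8 was dim, that is below the median intensity of all probe sets in both groups. The share of all genes includes dim ones, so the comparison is not at matched intensity. Pumps for drugs and conjugates rose, while the bile salt pump and part of the sterol pump fell. Abcb1b, one of the pair of mouse P-glycoproteins that export a wide range of drugs, had an intensity of 2628, 2019.8 and 1520.2 in FRG-7dNTBC livers, against 141, 71.5 and 179 in FRG+NTBC livers. This is a 16.5-fold rise (log2 change 4.04, SE 0.34, limma adjusted p = 0.000177). Its neighbour and close copy Abcb1a had 393, 265 and 349.7 in FRG-7dNTBC livers, against 69.1, 36.0 and 51.3 in FRG+NTBC livers, a 6.59-fold rise (log2 change 2.72, SE 0.25, limma adjusted p = 0.000247). A second probe set of Abcb1a rose by 3.25 (adjusted p = 4.03e-05), and a second one of Abcb1b, at the bottom of the scale, was not called, so that the average of both gave Abcb1b a log2 change of 2.17 (adjusted p = 0.000103). Every FRG-7dNTBC liver was above every FRG+NTBC liver for both genes. Probe sets of such near-identical copies can bind each other's RNA, which was not tested. Abcb1a is also a gene of endothelial cells, and of 6 endothelial markers Lyve1 (1.78) and Clec4g (0.74) rose while Pecam1, Cdh5, Kdr and Stab2 did not pass, with a summed intensity of 1778 to 2191 in FRG-7dNTBC livers and 1119 to 1669.7 in FRG+NTBC livers. Their part in the rise of Abcb1a was not tested.

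Abcc2 (MRP2), which carries bilirubin glucuronides and glutathione conjugates into bile, had 7486, 8780.0 and 9542 in FRG-7dNTBC livers, against 2210.3, 2740.1 and 2165 in FRG+NTBC livers. Its 3.63-fold rise (log2 change 1.86, SE 0.15, limma adjusted p = 0.000155) came with groups far apart, as the lowest FRG-7dNTBC liver was above the highest FRG+NTBC liver by more than the whole spread within FRG+NTBC. The only probe set of Abcc2 is of a kind that can match several transcripts. With such probe sets left out, Abcc2 could not be tested. Abcg2, the breast cancer resistance protein, which exports urate, sulfated compounds and porphyrins, had 3769, 3061 and 2336 in FRG-7dNTBC livers, against 1269, 714 and 982 in FRG+NTBC livers and rose 3.12-fold (log2 change 1.64, SE 0.25, limma adjusted p = 0.00202). The phospholipid floppase Abcb4, which supplies the phosphatidylcholine of bile, rose less, 1.84-fold, at 3104, 2778 and 2272 in FRG-7dNTBC livers, against 1193, 1820.3 and 1458 in FRG+NTBC livers (log2 change 0.88, SE 0.19, limma adjusted p = 0.0108). Its groups did not overlap, but without moderation of the variances the call was lost (adjusted p = 0.0781).

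Abcb11, the bile salt export pump, was lower in every FRG-7dNTBC liver than in any FRG+NTBC liver, at 1675, 1098 and 1552 in FRG-7dNTBC livers, against 3929, 5043 and 4871 in FRG+NTBC livers. The fall was 3.23-fold (log2 change -1.69, SE 0.19, limma adjusted p = 0.00055). Abcb11 and Abcb4, whose substrates meet in bile, moved in opposite directions. The part of the hepatocyte markers that fell, given above, in the falls of Abcb11 and the other hepatocyte transporters was not tested.

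**Figure D2:**
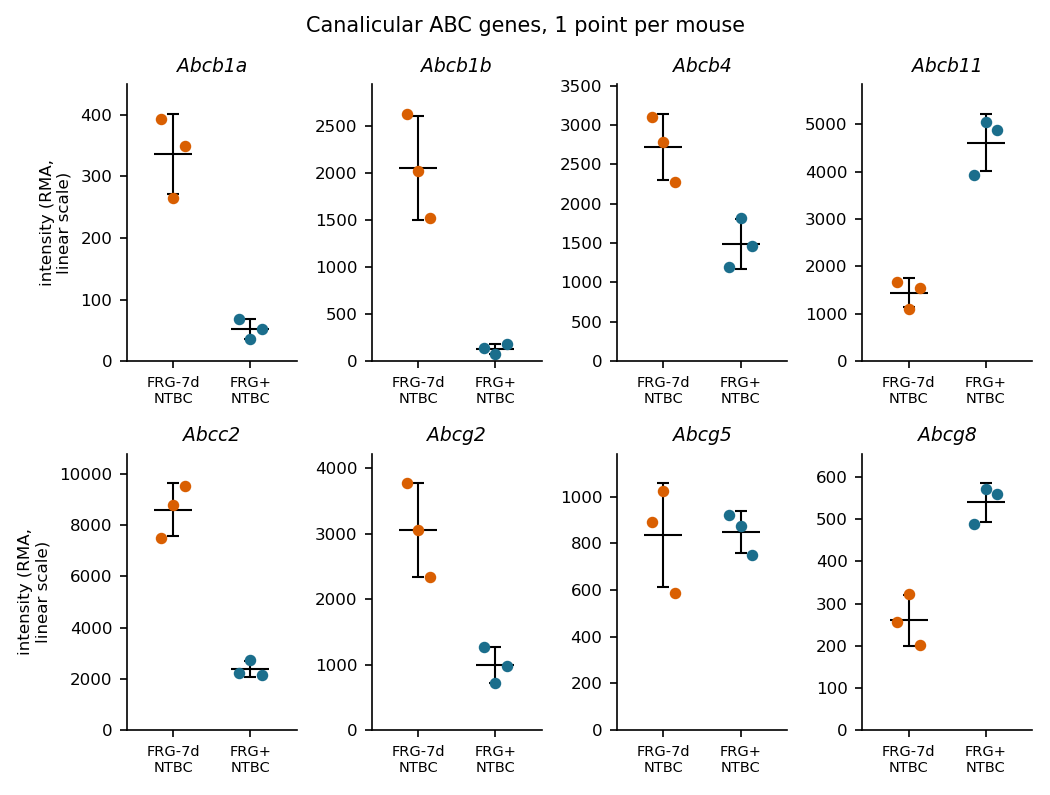
Intensity (linear scale, vertical axis, starting at 0) of the 8 canalicular ABC genes, 1 point per mouse, with FRG-7dNTBC (orange) left of FRG+NTBC (blue) and the mean ± SD in black (n = 3 mice per group). Abcb1a, Abcb1b, Abcb4, Abcc2 and Abcg2 are higher and Abcb11 and Abcg8 lower in FRG-7dNTBC livers with no overlap of the groups, and the points of Abcg5 overlap.

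Abcg5 and Abcg8 together form the pump that secretes cholesterol and plant sterols into bile, and the heterodimer needs both. Abcg8 had 256, 322 and 202 in FRG-7dNTBC livers, against 488, 572 and 560.3 in FRG+NTBC livers, a 2.11-fold fall (log2 change -1.08, SE 0.18, limma adjusted p = 0.00352). Abcg5 had 891, 1024 and 588 in FRG-7dNTBC livers, against 923, 873 and 749.6 in FRG+NTBC livers, with overlapping groups and a log2 fold change of -0.06 (SE 0.21, 95% interval -0.54 to 0.43, adjusted p = 0.869) that turned positive once FRG-7dNTBC replicate 3 or FRG+NTBC replicate 1 was left out. Within each mouse the log2 value of Abcg8 minus that of Abcg5 was -1.80, -1.67 and -1.54 in FRG-7dNTBC livers, against -0.92, -0.61 and -0.42 in FRG+NTBC livers. The difference of -1.02 (SE 0.16) separated the groups completely, at p = 0.1 in a two-sided exact permutation test (0.1 after adjustment over 4 pairs of neighbouring members, which were chosen after their values were seen). This is the smallest p that 3 mice against 3 can give, so the test cannot pass 0.05. The genes lie head to head on chromosome 17, and in RefSeq their nearest start sites are separated by 109 bases. The shared stretch is shown because both genes start from it and only one of them was called. It is the RefSeq promoter window of Abcg8 (GRCm38.p6, chr17:84682871-84683170, plus strand, from 250 bases before to 50 after its start), in which the capitals mark the bases between the start of Abcg5, leftward, and the start of Abcg8, rightward.
Abcg5 to Abcg8: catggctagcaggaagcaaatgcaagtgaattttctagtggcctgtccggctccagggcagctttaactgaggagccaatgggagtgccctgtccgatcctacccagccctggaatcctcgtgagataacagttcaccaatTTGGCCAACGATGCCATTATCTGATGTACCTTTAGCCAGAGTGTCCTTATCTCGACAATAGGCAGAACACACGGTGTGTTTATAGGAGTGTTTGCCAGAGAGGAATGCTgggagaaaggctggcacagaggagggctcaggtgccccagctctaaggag

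Among the basolateral members, 3 of 6 rose (50%) and 1 fell (16.7%) in FRG-7dNTBC livers, against 17.4% and 12.7% of all genes. Their median log2 fold change was 0.40. None of these 6 was dim, whereas the share of all genes includes dim ones. Abcc4 (MRP4) exports bile acids together with glutathione, and also cyclic nucleotides and prostaglandins. It had 5480.1, 4182 and 6427 in FRG-7dNTBC livers, against 760.1, 331 and 505 in FRG+NTBC livers, a 10.5-fold rise (log2 change 3.39, SE 0.30, limma adjusted p = 0.000199), and no other basolateral member rose as far. Abcc1 (MRP1), an exporter of glutathione conjugates and leukotriene C4, had 76.1, 50.9 and 128 in FRG-7dNTBC livers, against 24.4, 21.1 and 20.8 in FRG+NTBC livers. The FRG-7dNTBC livers varied among themselves but all lay above the FRG+NTBC livers, and the rise was 3.59-fold (log2 change 1.84, SE 0.30, limma adjusted p = 0.00284). In the FRG+NTBC livers Abcc1 stood below the median of all probe sets (34.8), near the bottom of the scale, and without moderation of the variances the call was lost (adjusted p = 0.0572).

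Abcc3 (MRP3), which carries glucuronides and bile salts to the blood, was barely past the threshold, at 2856, 3327 and 2740.1 in FRG-7dNTBC livers, against 1951, 2419 and 2179.8 in FRG+NTBC livers (log2 change 0.45, SE 0.14, limma adjusted p = 0.0466, 1.36-fold). This call was lost under both other scalings, with moderation along an intensity trend, without moderation, and on leaving out any single mouse except FRG-7dNTBC replicate 3, with adjusted p-values of 0.0632 to 0.131 without a mouse. Abcc6 (MRP6), through which hepatocytes release ATP and whose loss leads to ectopic mineralization, moved the other way and by more. It had 72.0, 104 and 86.2 in FRG-7dNTBC livers, against 891, 803 and 744 in FRG+NTBC livers, a 9.38-fold fall (log2 change -3.23, SE 0.16, limma adjusted p = 2.5e-05), and this was the largest fall among the members.

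Abca1, which loads cholesterol and phospholipid onto apolipoprotein A-I, and Abcc5 (MRP5), an exporter of cyclic nucleotides, were not called at their brightest probe sets. Abca1 had 2210.3, 3104 and 2759 in FRG-7dNTBC livers, against 1859, 2006 and 2419 in FRG+NTBC livers (log2 change 0.36, SE 0.17, limma adjusted p = 0.158, 95% interval -0.03 to 0.75), with overlapping groups. One of its other probe sets read 82.1, 175 and 53.5 in FRG-7dNTBC livers, against 26.2, 25.6 and 28.1 in FRG+NTBC livers and was higher (log2 change 1.78, SE 0.37, limma adjusted p = 0.00893), and the remaining one, with 140.1, 304 and 79.9 in FRG-7dNTBC livers, against 54.6, 66.3 and 67.2 in FRG+NTBC livers, did not pass (adjusted p = 0.0545). Macrophages also express Abca1, and of 6 macrophage markers Cd68 (2.23) and Marco (1.09) rose while Adgre1, Clec4f, Csf1r and Lyz2 did not pass, with a summed intensity of 1365 to 3949.7 in FRG-7dNTBC livers and 1549.8 to 2252 in FRG+NTBC livers. Their part in the values of Abca1 was not tested.

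Abcc5 is the member measured by the most probe sets, and its brightest one is among the 3 that were not called. That probe set read 187, 211 and 190.0 in FRG-7dNTBC livers, against 154, 177 and 151 in FRG+NTBC livers (log2 change 0.29, SE 0.13, limma adjusted p = 0.132), with no overlap of the groups. Of its 10 probe sets 7 were higher at an adjusted p under 0.05, with log2 fold changes from 0.67 to 1.62, and none was lower, against 14.0% higher and 13.9% lower among all probe sets. The next brightest read 313, 252 and 237 in FRG-7dNTBC livers, against 127, 108 and 103 in FRG+NTBC livers (log2 change 1.24, SE 0.15, limma adjusted p = 0.000831). Averaged over its probe sets, Abcc5 rose by 0.75 (adjusted p = 0.00133), and Abca1, averaged likewise, one of 1.14 (adjusted p = 0.0199). By that measure 5 of 6 basolateral members rose, and the matching share of all genes is not given here.

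**Figure D3:**
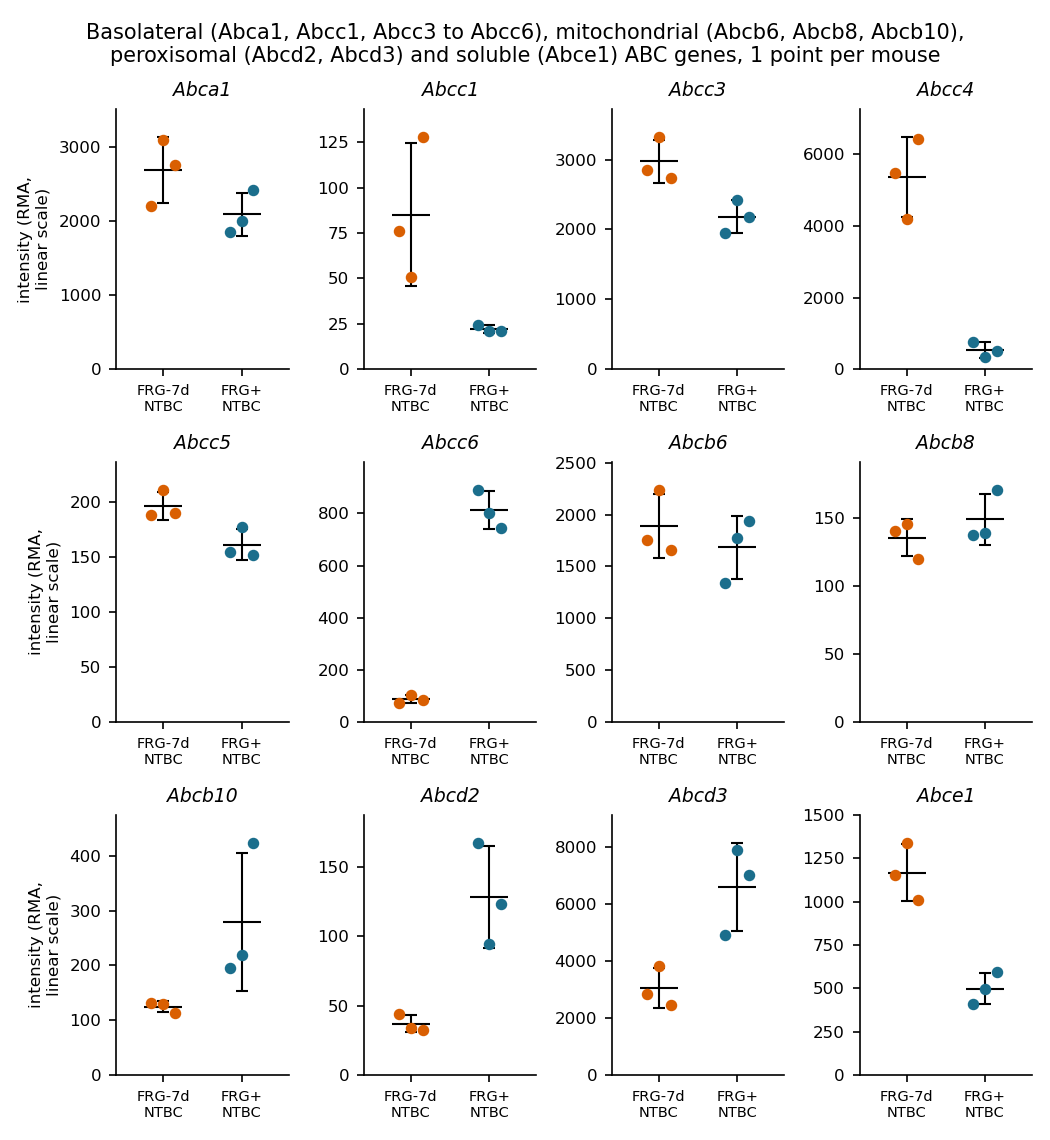
Intensity (linear scale, vertical axis, starting at 0) of 6 basolateral, 3 mitochondrial and 2 peroxisomal ABC genes and of Abce1, each at its brightest probe set, 1 point per mouse, with FRG-7dNTBC (orange) left of FRG+NTBC (blue) and the mean ± SD in black (n = 3 mice per group). Abcc4 and Abcc6 show the widest separation, in opposite directions, and Abcb10 has 1 FRG+NTBC liver at 425, far above the others.

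The 4 members with the largest rises were Abcb1b, Abcc4, Abcb1a and Abcc2, and they were picked by those rises. All 4 have promoter windows in RefSeq (GRCm38.p6), which are shown here. Each window runs from 250 bases before the start of transcription to 50 after. They were searched on both strands for TGACNNNGC, the core of the antioxidant response element that NRF2 binds, and matches are in capitals. The windows are chr5:8797897-8798196 (plus strand) for Abcb1b, chr14:118706170-118706469 (minus strand) and chr14:118676882-118677181 (minus strand) for Abcc4, chr5:8566841-8567140 (plus strand) for Abcb1a and chr19:43782058-43782357 (plus strand) for Abcc2.
Abcb1b: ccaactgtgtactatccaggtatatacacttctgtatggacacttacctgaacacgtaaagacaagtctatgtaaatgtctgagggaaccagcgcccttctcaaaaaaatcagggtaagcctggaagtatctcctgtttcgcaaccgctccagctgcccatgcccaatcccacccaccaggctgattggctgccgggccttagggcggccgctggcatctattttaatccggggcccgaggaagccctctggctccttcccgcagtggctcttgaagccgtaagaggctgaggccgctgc
Abcc4, first window: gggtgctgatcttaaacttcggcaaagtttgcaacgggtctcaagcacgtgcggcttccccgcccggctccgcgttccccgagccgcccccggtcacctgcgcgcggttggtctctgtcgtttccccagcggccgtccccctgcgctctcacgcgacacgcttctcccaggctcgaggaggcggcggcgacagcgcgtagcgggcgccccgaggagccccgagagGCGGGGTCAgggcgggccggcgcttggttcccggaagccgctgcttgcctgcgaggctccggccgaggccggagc
Abcc4, second window: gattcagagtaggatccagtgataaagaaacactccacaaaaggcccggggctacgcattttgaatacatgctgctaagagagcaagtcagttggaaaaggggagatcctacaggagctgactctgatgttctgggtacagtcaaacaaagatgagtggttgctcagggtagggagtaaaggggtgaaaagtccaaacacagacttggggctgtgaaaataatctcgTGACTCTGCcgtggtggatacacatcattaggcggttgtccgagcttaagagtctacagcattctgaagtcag
Abcb1a: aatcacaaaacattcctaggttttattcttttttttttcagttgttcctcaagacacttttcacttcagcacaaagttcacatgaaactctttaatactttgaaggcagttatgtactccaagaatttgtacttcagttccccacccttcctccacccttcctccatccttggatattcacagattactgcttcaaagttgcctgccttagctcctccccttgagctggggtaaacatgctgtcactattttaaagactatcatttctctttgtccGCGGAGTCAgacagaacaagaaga
Abcc2: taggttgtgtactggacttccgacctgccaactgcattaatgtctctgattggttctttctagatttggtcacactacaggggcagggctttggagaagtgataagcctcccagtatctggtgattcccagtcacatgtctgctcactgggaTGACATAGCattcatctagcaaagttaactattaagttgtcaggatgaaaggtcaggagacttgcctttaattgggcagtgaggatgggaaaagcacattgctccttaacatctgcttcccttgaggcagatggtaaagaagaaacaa

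Counted by its leftmost base as printed, a match lay 98 bases before the start of Abcc2, 25 and 23 bases before the starts of Abcc4, and at base 27 of the transcript of Abcb1a, with none in the window of Abcb1b. Over the whole family, 7 of 42 windows (16.7%) held the motif, from 5 of 35 genes with a window, against 12.4% of all 32851 windows of this length. The other matches lay in the windows of Abca8b, which rose by 0.64 on the log2 scale, and of Abcc10, which was not called (-0.49, limma adjusted p = 0.138). Of the other members that were higher, Abcc12, Abcg2, Abce1, Abcb4 and Abca5 have windows with no match. Abcc1, Abcc3 and Abcg1, higher as well, have no window. A match is a stretch of letters and not a measured binding site.

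Both measured peroxisomal members fell in FRG-7dNTBC livers. Abcd3 (PMP70), which brings branched-chain acyl groups and the precursors of bile acids into the peroxisome, had 2856, 3822 and 2469 in FRG-7dNTBC livers, against 4905, 7913 and 7033 in FRG+NTBC livers. It fell 2.16-fold (log2 change -1.11, SE 0.22, limma adjusted p = 0.00785) with no overlap, and its other probe set fell likewise (-1.05, adjusted p = 0.00293). Abcd2, a carrier of very long-chain fatty acids, had 44.0, 34.1 and 32.7 in FRG-7dNTBC livers, against 168, 94.3 and 124 in FRG+NTBC livers, a 3.42-fold fall (log2 change -1.77, SE 0.22, limma adjusted p = 0.000902). That fall was found at 1 of its 4 probe sets. The others had log2 fold changes of -0.52, -0.38 and 0.29, none past the threshold, and the average over all 4 missed it as well (adjusted p = 0.0534). Without moderation of the variances the call of Abcd3 was lost (adjusted p = 0.0776). Abcd4, of the same subfamily, exports cobalamin from the lysosome and was also lower, at 124, 126 and 115 in FRG-7dNTBC livers, against 152, 219.8 and 228 in FRG+NTBC livers (log2 change -0.69, SE 0.17, limma adjusted p = 0.0201). Its call was lost without FRG+NTBC replicate 2 (adjusted p = 0.0812), FRG+NTBC replicate 3 (0.0688) or FRG-7dNTBC replicate 1 (0.0596), without moderation (0.0921), and without the probe sets that can match several transcripts.

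Of 3 measured mitochondrial members, Abcb10 fell and Abcb6 and Abcb8 were not called. Abcb10, an inner membrane protein that heme synthesis in red cell precursors depends on, had 132, 129.8 and 114 in FRG-7dNTBC livers, against 195, 219.8 and 425 in FRG+NTBC livers (log2 change -1.08, SE 0.27, limma adjusted p = 0.0212). The FRG-7dNTBC livers lay close together and below all FRG+NTBC livers, of which replicate 3 was about 2 times as high as the others, and its next probe set, with 85.0, 99.7 and 65.3 in FRG-7dNTBC livers, against 226, 199 and 335 in FRG+NTBC livers, fell by 1.59 (adjusted p = 0.00172). At the brightest probe set the call was lost without FRG-7dNTBC replicate 1 (adjusted p = 0.0588) and without moderation (0.126). Among 3 measured erythroid markers Alas2 fell by 1.67 and Epb42 and Klf1 did not pass. The summed intensity of the 3 was 255 to 348 in FRG-7dNTBC livers and 693 to 921 in FRG+NTBC livers. Most of it came from Alas2, which read 212, 258 and 175 in FRG-7dNTBC livers, against 588, 635 and 832 in FRG+NTBC livers. Epb42 was near the bottom of the scale at 17.1 ± 2.17 in FRG-7dNTBC livers and 19.0 ± 2.93 in FRG+NTBC livers. The part of the erythroid markers in the fall of Abcb10 was not tested.

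Abcb6, a porphyrin transporter reported at the outer mitochondrial membrane, had 1758, 2241 and 1663 in FRG-7dNTBC livers, against 1342, 1771 and 1938 in FRG+NTBC livers, with overlapping groups (log2 change 0.17, SE 0.18, limma adjusted p = 0.53, 95% interval -0.25 to 0.59). Abcb8, a half-transporter of the inner membrane, gave unlike values at its pair of probe sets. The brighter read 141, 146 and 120.3 in FRG-7dNTBC livers, against 138, 139 and 171 in FRG+NTBC livers (log2 change -0.14, SE 0.14, limma adjusted p = 0.523) and the other 119, 85.0 and 79.3 in FRG-7dNTBC livers, against 151, 187 and 226 in FRG+NTBC livers, where it was lower with no overlap (adjusted p = 0.00877). With probe sets that can match several transcripts left out, 2 of 3 mitochondrial members were lower.

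Abce1, the soluble protein that splits ribosomes apart for reuse, rose 2.35-fold, at 1152, 1342 and 1009.9 in FRG-7dNTBC livers, against 410.1, 495 and 592 in FRG+NTBC livers (log2 change 1.23, SE 0.17, limma adjusted p = 0.00156). Another of its 3 probe sets rose by 1.38 (adjusted p = 0.00248) and the third, near the bottom of the scale, did not pass. The other soluble members, Abcf1, Abcf2 and Abcf3, which act in translation or its control, had log2 fold changes of -0.39, 0.18 and 0.21 and none was called. Abcf1 was below all FRG+NTBC livers in every FRG-7dNTBC liver (adjusted p = 0.0881), and it passed on the lower side with the arrays scaled to one 75th percentile (adjusted p = 0.0429), quantile normalized (0.0438), with array weights (0.0367) and without FRG-7dNTBC replicate 3 (0.0307). Its other probe sets had log2 fold changes from -0.27 to 0.27, none of them called.

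Of 4 lysosomal or endosomal members, Abca2 and Abcd4 fell, Abca5 rose and Abcb9 was not called. Abca2, which handles sterols and sphingolipids in late endosomes, read 67.2, 70.0 and 69.5 in FRG-7dNTBC livers, against 99.7, 155 and 140.1 in FRG+NTBC livers (log2 change -0.91, SE 0.18, limma adjusted p = 0.00638), and its call was lost without moderation (adjusted p = 0.0575). Abca5 read 53.8, 79.3 and 75.1 in FRG-7dNTBC livers, against 37.3, 37.5 and 52.4 in FRG+NTBC livers (log2 change 0.71, SE 0.20, limma adjusted p = 0.0321). The call of Abca5 was lost without FRG+NTBC replicate 1 (adjusted p = 0.103), FRG+NTBC replicate 2 (0.115), FRG-7dNTBC replicate 2 (0.0813) or FRG-7dNTBC replicate 3 (0.0675), and also with the arrays scaled to one 75th percentile (0.0513) without moderation (0.13), with array weights (0.0539) and with its probe sets averaged (0.275). Abcb9, a peptide transporter, differed by -0.03 (95% interval -0.29 to 0.24). The sulfonylurea receptors Abcc8 and Abcc9, which are subunits of potassium channels and carry no known substrate, were not called, with Abcc9 at 396, 267 and 365 in FRG-7dNTBC livers, against 322, 174 and 168 in FRG+NTBC livers (log2 change 0.68, SE 0.27, limma adjusted p = 0.101) and Abcc8 near the bottom of the scale. Abcc9 passed as higher without FRG+NTBC replicate 1 (adjusted p = 0.0139), with array weights (0.0112) and with its probe sets averaged (0.0394).

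Subfamily A had 14 measured genes, of which 2 rose and 3 fell, with log2 fold changes from -1.73 to 0.71. The neighbours Abca8a and Abca8b on chromosome 11, copies of one ancestral gene that are linked to sterol transport, moved in opposite directions. Abca8a had 942, 501 and 639 in FRG-7dNTBC livers, against 1652, 2759 and 2402 in FRG+NTBC livers, a 3.31-fold fall (log2 change -1.73, SE 0.27, limma adjusted p = 0.00232), which was lost without moderation (adjusted p = 0.051). Abca8b had 396, 352 and 391 in FRG-7dNTBC livers, against 231, 258 and 244 in FRG+NTBC livers, a 1.55-fold rise (log2 change 0.64, SE 0.12, limma adjusted p = 0.00583). Neither gene had overlapping groups, and the log2 value of Abca8b minus that of Abca8a was higher by 2.36 (SE 0.28) in FRG-7dNTBC livers, at the smallest p the two-sided exact permutation test allows (0.1, and 0.1 over 4 pairs). This pair too was chosen after its values were seen. Abca8a and Abca8b each have 1 probe set, and whether these probe sets bind each other's RNA was not tested. Abca9 (-0.20) and Abca6 (0.34), next to them in that order, were not called, and Abca6 had 1 high FRG-7dNTBC liver at 118 against 52.4 and 35.5 in the others. The cluster ends with Abca5. Abca3, which packs surfactant lipid in the lung, read 343, 258 and 311 in FRG-7dNTBC livers, against 471, 568 and 622 in FRG+NTBC livers (log2 change -0.87, SE 0.16, limma adjusted p = 0.00548), and the other 2 of its 3 probe sets did not pass.

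On chromosome 5 the order is Abcb1a, Abcb1b and Abcb4, and all 3 rose, though not alike. The log2 value of Abcb1b minus that of Abcb1a was higher in FRG-7dNTBC livers by 1.32 (SE 0.36) and that of Abcb1b minus Abcb4 by 3.17 (SE 0.55). The first order held for the brightest probe sets: with the probe sets of each gene averaged, Abcb1b rose by 2.17 and Abcb1a by 2.99, which turns it round. At the brightest probe sets both differences separated the groups completely, with p = 0.1 in the exact permutation test (two-sided, 0.1 over 4 pairs). That is the smallest p the test allows, and both pairs were chosen after their values were seen.

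By subfamily, 0 of 3 members were called in F and 3 of 3 in D, groups too small to be set against the 30.2% of all genes called, and no difference between subfamilies was tested. In B, 3 of 8 rose and 2 fell, in C 5 of 10 rose and 1 fell, and in G 2 of 6 rose and 1 fell. Abcc12, a member of C whose substrate is not settled, had 282, 181 and 302 in FRG-7dNTBC livers, against 61.8, 164 and 47.5 in FRG+NTBC livers (log2 change 1.67, SE 0.43, limma adjusted p = 0.0229). Its other probe set, at 18.2, 16.0 and 18.4 in FRG-7dNTBC livers, against 20.2, 21.7 and 20.1 in FRG+NTBC livers, was not called, and the average of both missed the threshold at 1.64-fold (adjusted p = 0.0646), against 3.17-fold at the brightest. FRG+NTBC replicate 2 came close to the lowest FRG-7dNTBC liver, and the call was lost without FRG+NTBC replicate 1 (adjusted p = 0.0836), FRG+NTBC replicate 3 (0.0725) or FRG-7dNTBC replicate 1 (0.0804), and without moderation (0.143). Abcg1, which moves cholesterol toward HDL and is strong in macrophages, read 161, 154 and 171 in FRG-7dNTBC livers, against 109.9, 106 and 127 in FRG+NTBC livers (log2 change 0.51, SE 0.13, limma adjusted p = 0.0199). The call of Abcg1 was lost without FRG+NTBC replicate 1 (adjusted p = 0.0584), FRG+NTBC replicate 2 (0.0787) or FRG-7dNTBC replicate 1 (0.0616), and when the arrays were scaled to one 75th percentile (0.0628) or quantile normalized (0.0591). Its other probe set differed by 0.09 (adjusted p = 0.75), and the average of both was not called (0.0948). The part of the macrophage markers, given beside Abca1, was not tested. The remaining members without a call, Abca7, Abcc10 and Abcg4, had log2 fold changes of 0.07, -0.49 and -0.32. Abcc10 passed as lower with its probe sets averaged (adjusted p = 0.0453), and Abcg4 with array weights (0.0297).

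**Figure D4:**
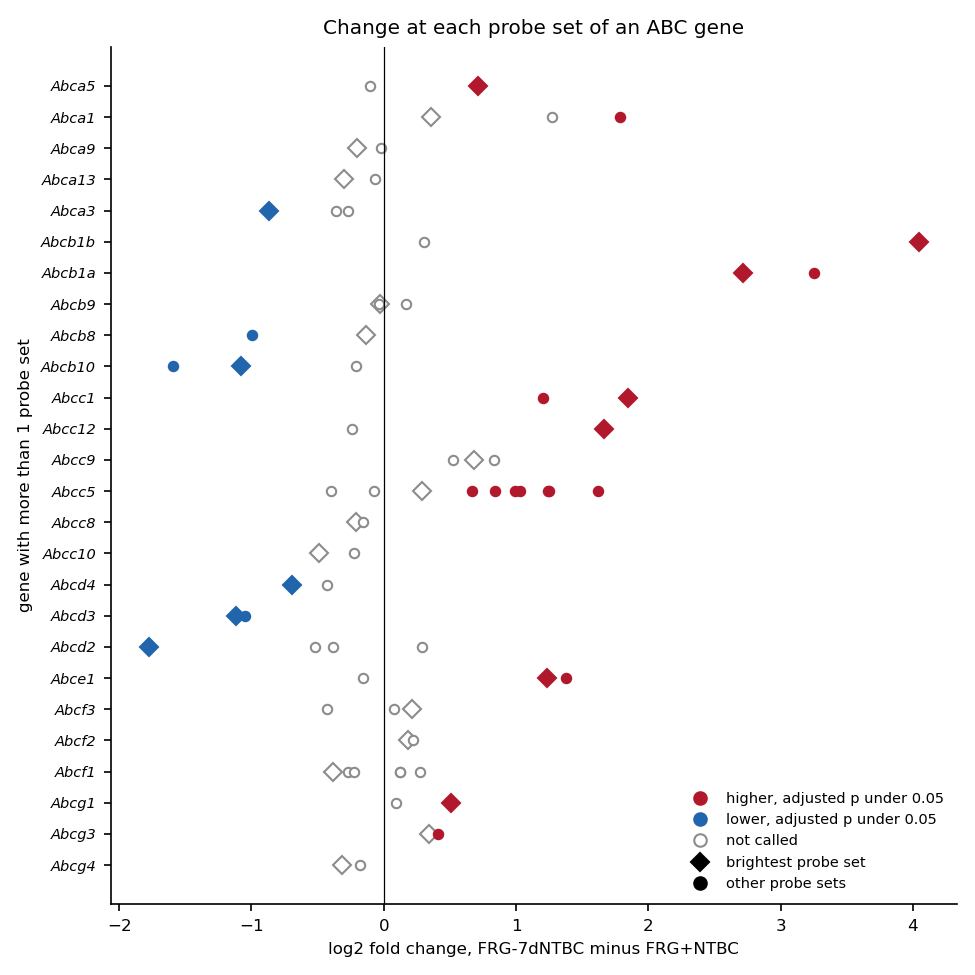
Horizontal axis, log2 fold change of FRG-7dNTBC over FRG+NTBC livers at every probe set of the 26 ABC genes that have more than 1, with diamonds for the brightest probe set of a gene and circles for the others. Filled red points were higher and filled blue points lower at an adjusted p under 0.05, and open points were not called: Abcc5 has 7 red circles to the right of its open diamond, and Abcd2 has 1 blue diamond apart from 3 open circles.

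The ABC genes that carry other symbols, the chloride channel Cftr and the peptide transporters Tap1 and Tap2, were not called. At their brightest probe sets none of 6 other canalicular and basolateral proteins passed. Among them were the phospholipid flippase Atp8b1 and the bile acid exporter subunits Slc51a and Slc51b. Tmem30a, also among the 6, differed by 0.16, but the paper lists another of its probe sets as lower in FRG-7dNTBC livers. The other probe sets of these 6 genes are not given here. Of 5 measured scaffold and trafficking genes, the recycling GTPase Rab11a rose by 1.19 (1469.5 ± 139.6 in FRG-7dNTBC livers and 645 ± 56.2 in FRG+NTBC livers, SD, n = 3 mice per group) and the membrane linker Ezr fell by 0.59. Among 10 measured nuclear receptors and other transcription factors that act on ABC genes, 6 fell and 1 rose. Of all genes, 12.7% were lower and 17.4% higher. The factors that fell include the bile acid receptor Nr1h4 (-0.79), the repressor Nr0b2 (-1.13), the oxysterol receptor Nr1h3 (-1.01) and Ppara (-2.30), with smaller falls of Nr1i2 and Hnf4a. The factor that rose was Nfe2l2 (1.66), the gene of NRF2. No link between any of these factors and a transporter was tested in these livers.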

How the data were processed

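Livers of 3 FRG-7dNTBC and 3 FRG+NTBC mice were profiled on Affymetrix Mouse 430 2.0 arrays, 1 per mouse. The authors deposited linear intensities that they had obtained by Robust Multiarray Analysis, that is background correction, quantile normalization between arrays and summarization by median polish. Transcriptome Analysis Console is named in the submitters' processing notes. Scanner files were not used here, so background levels and detection are unknown, and the precision is limited by 3 arrays per group. Median polish and quantile normalization can compress differences of very dim and very bright probe sets.

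Log2 of the intensities was tested with limma 3.58.1 (R 4.3.3, lmFit and eBayes) across all 45037 probe sets, with Benjamini-Hochberg adjustment over all of them and a call at an adjusted p under 0.05. Tables and plots were made in Python 3.11.15 with pandas 2.3.3 and matplotlib 3.10.9. The array annotation pairs 34945 probe sets with 1 gene symbol, 932 with several and 9160 with none, and only the first kind was used for members. A probe set was called dim when both group means lay under 34.8, the median of all values. The shares of all genes include genes with dim probe sets, and no share without them is given. The 95% intervals are those of limma. The limma p-values set each difference against the spread between 3 mice per group, moderated by the spread borrowed across all probe sets. Without that moderation 13 of the 23 calls remained. The fit was tested on simulated data with known changes.

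Members and gene lists were chosen with earlier results of these data known. Named were all measured canalicular, basolateral, peroxisomal and mitochondrial members, every other member past the threshold by at least 2-fold, the called lysosomal and soluble members, and likewise the related genes past both limits. Abca3, Abca8b, Abcg1 and the other genes outside this rule were named after their values were seen. Promoter windows come from RefSeq (GRCm38.p6), in which 35 of 45 members have one. Alternatives were the scaling of arrays, moderation, array weights, filters on probe sets, averaging a gene's probe sets, a replicate block and leaving out each mouse.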

Additional observations from a re-analysis of the deposited data

How the results depend on the processing

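The counts depended most on the moderation of the variances. Without it, 8 ABC genes were higher and 5 lower, with 1 basolateral member higher, 1 peroxisomal member lower and 0 mitochondrial members lower. With the probe sets of each gene averaged, 5 basolateral members were higher, 1 peroxisomal member was lower and 2 mitochondrial members were lower, and 18 of the 23 calls remained, with none reversed. Without probe sets that can match several transcripts, 2 mitochondrial members were lower. With array weights 13 members were higher and 14 lower. Leaving out 1 mouse gave 10 to 12 members higher and 8 to 11 lower, and 0 to 1 mitochondrial members lower, with 0 when FRG-7dNTBC replicate 1 was left out. The difference of Abcg5 turned to 0.012 with array weights and to 0.0067 without FRG+NTBC replicate 1, and over the left-out mice it ran between -0.22 when FRG-7dNTBC replicate 2 was dropped and 0.18 when replicate 3 of that group was. Of 374 values of 25 named genes under the alternatives, 330 kept their direction and side of the threshold, 36 lost the call, 5 gained one and 3 reversed. The cause of these changes was not tested, and 3 mice per group limit which small changes can pass.

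Deviations of mice with the same replicate number correlated at 0.106, 0.034 and -0.156, and those of mice with unlike numbers at -0.21 to 0.22. No pairing by number is seen in these values, but with 3 mice per group they cannot decide whether mice were paired. With the number as a replicate block, 13 members were higher and 11 lower, and 22 of the 23 calls remained. The call of Abcc3 was lost (adjusted p = 0.0579 from limma), Abcc9 passed as higher (0.0443) and Abcc10 as lower (0.0478), and no call reversed.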
